A study of Homo sapiens with 8 samples.

Results

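The genes described here are 10 components of the NF-κB system: the subunits *NFKB1*, *REL*, *RELA*, *NFKB2* and *RELB*, the inhibitors *NFKBIA*, *NFKBIB* and *NFKBIE*, the atypical inhibitor *BCL3*, and the kinase gene *MAP3K14*. They were chosen by name, and they are 10 of 20090 protein-coding genes for which peaks within 1000 bp of any annotated start site were collected. HCT8 cells, a human ileocecal adenocarcinoma line, received membrane vesicles (MVs) of *V. cholerae* C6706 for 5 h, MVs of *E. coli* MC1061 for 5 h, or no vesicles (mock; the labels call these cells non treated, and the study's methods describe a buffer control). H3K4me3, a histone mark of active start sites, was measured by ChIP sequencing, and nucleosome-free DNA by FAIRE sequencing. Each treatment had 1 library per assay, so no difference between treatments has a replicate check, none was tested, and no p-value is given. Intervals in parentheses are exact 95% intervals of tag counts and cover counting error only.

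NF-κB proteins are dimeric transcription factors that are held inactive in the cytoplasm until a receptor is engaged. In the canonical pathway, bacterial products or cytokines trigger the degradation of IκB inhibitors, and dimers of p50 (from *NFKB1*) with RelA or c-Rel enter the nucleus. In the noncanonical pathway the kinase NIK, the product of *MAP3K14*, drives the processing of p100 (from *NFKB2*) to p52, which acts with RelB. Several of the genes are themselves NF-κB targets, with *NFKBIA* as the textbook negative feedback gene. In the intestinal epithelium the system is known as a route by which bacterial contact is sensed.

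The sequences of 4 members show what lies before start sites on each side of the system: *NFKB2* and *MAP3K14* for the noncanonical pathway, *NFKB1* and *NFKBIA* for the canonical one. Each is the 250 bases before the start of the gene's canonical transcript, read from the GRCh37 genome on the gene's own strand, and capitals mark matches to the κB consensus, the 10-base element that NF-κB dimers bind.
NFKB2: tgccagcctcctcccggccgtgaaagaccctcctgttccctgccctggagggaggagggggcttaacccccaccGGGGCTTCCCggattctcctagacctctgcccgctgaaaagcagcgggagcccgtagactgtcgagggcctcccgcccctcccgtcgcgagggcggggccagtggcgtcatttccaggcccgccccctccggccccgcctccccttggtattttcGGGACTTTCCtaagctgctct
MAP3K14: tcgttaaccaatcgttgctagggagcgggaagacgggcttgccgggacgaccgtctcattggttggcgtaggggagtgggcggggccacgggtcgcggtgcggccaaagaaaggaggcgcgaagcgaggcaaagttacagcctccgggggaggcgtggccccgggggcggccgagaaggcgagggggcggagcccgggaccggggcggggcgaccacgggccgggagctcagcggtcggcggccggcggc
NFKB1: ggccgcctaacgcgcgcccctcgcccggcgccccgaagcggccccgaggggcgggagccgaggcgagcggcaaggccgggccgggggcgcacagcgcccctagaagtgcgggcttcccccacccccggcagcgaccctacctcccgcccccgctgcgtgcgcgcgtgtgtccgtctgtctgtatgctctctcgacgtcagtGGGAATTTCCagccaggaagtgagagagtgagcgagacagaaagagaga
NFKBIA: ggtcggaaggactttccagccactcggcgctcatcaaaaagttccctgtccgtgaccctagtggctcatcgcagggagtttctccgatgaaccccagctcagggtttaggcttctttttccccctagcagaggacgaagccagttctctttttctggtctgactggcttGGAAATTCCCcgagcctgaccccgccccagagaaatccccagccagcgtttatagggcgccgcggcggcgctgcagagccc
They lie at chr10:104155212-104155461 (*NFKB2*, plus strand), chr17:43394387-43394636 (*MAP3K14*, minus), chr4:103422266-103422515 (*NFKB1*, plus) and chr14:35873956-35874205 (*NFKBIA*, minus). The *NFKB2* stretch lies inside the gene, since longer transcripts start upstream, and 238 of its bases are in no annotated exon of *NFKB2*. The other stretches lie before the gene or overlap its first annotated exon by at most 29 bases, and 211 bases of the *NFKB1* stretch are exon of a long noncoding RNA on that locus.

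The κB consensus was searched on both strands in 300-base windows, from 250 bases before the start to 50 bases from it. A match was present at 7 of the 9 members searched, against 12.6% of 19812 such windows of protein-coding genes. *NFKB2* had matches that begin 176 and 21 bases before the start. *NFKB1* had its match at 49 bases, *NFKBIA* at 81 bases, *NFKBIE* at 144 bases, and *REL* and *NFKBIB* had overlapping matches that begin 47 and 28 bases before the start. *BCL3* had its match just after the start, while the windows of *RELA* and *MAP3K14* held none. The AP-1 site TGANTCA, whose letters read alike on both strands, was found at 2 of these 9 members, *NFKBIB* and *NFKBIE*, against 5.42% of windows. A match describes letters and is no evidence of binding.

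The H3K4me3 libraries held 13011839 tags with *V. cholerae* MVs, 10528314 with *E. coli* MVs and 3463875 with mock, so the mock library sets the precision. Called peaks held 56.1%, 53.9% and 38.6% of them. Over all genes with a peak in both lists, the median log2 ratio against mock was 0.63 with *V. cholerae* MVs and 0.52 with *E. coli* MVs, and members are read against these medians. Of 12 genes of epithelium and intestine, 11, 12 and 11 had an H3K4me3 peak in the *V. cholerae*, *E. coli* and mock libraries, and of 10 blood cell genes 1 had a peak in each. The FAIRE library of *E. coli* MVs stood apart, with 37.3% of its tags in peaks against 13.9% with *V. cholerae* MVs and 7.11% with mock, and with peaks of up to 23452 bp. It also had FAIRE peaks at 7 of the 10 blood cell genes, against 3 with *V. cholerae* MVs and 5 with mock. Of 7 fibroblast and endothelium genes, however, 4 had a FAIRE peak with *E. coli* MVs, 3 with *V. cholerae* MVs and 5 with mock. Among the 12 genes of epithelium and intestine, 12, 12 and 8 had a FAIRE peak in the same order.

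All 10 members carried an H3K4me3 peak over the canonical start site in each of the 3 libraries. By the wider rule of a peak within 1000 bp of any start site, 65.2%, 64.3% and 60.4% of all genes had one with *V. cholerae* MVs, *E. coli* MVs and mock. Every member had more normalized H3K4me3 tags with MVs of either kind than with mock, as had 91.1% of all genes with *V. cholerae* MVs and 95.9% with *E. coli* MVs. This direction depended on the scaling at 3 members. Scaled to the tags in all peaks, *NFKBIB* turned lower than mock with *V. cholerae* MVs, at −0.29 (−0.55 to −0.03), and with the median gene set to 0 it stood at −0.39 (−0.64 to −0.13). *NFKBIB* with *E. coli* MVs, and *NFKB1* and *REL* with MVs of either kind, also fell below 0 under at least 1 of these scalings, at −0.19 to −0.015 and within counting error. The gain was at least 1.5-fold for 7 of 10 members with *V. cholerae* MVs, against 53.4% of 12095 genes, and for 7 of 10 with *E. coli* MVs, against 42.6% of 12087 genes. The members were the same in both comparisons: *RELA*, *NFKBIA*, *NFKBIE*, *BCL3*, *NFKB2*, *RELB* and *MAP3K14*. The ratio exceeded counting error at 9 members with *V. cholerae* MVs and at 10 with *E. coli* MVs, while 75.5% and 74.7% of all genes did so. The median log2 ratio of the members was 1.02 with *V. cholerae* MVs and 0.81 with *E. coli* MVs.

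**Figure D1:**
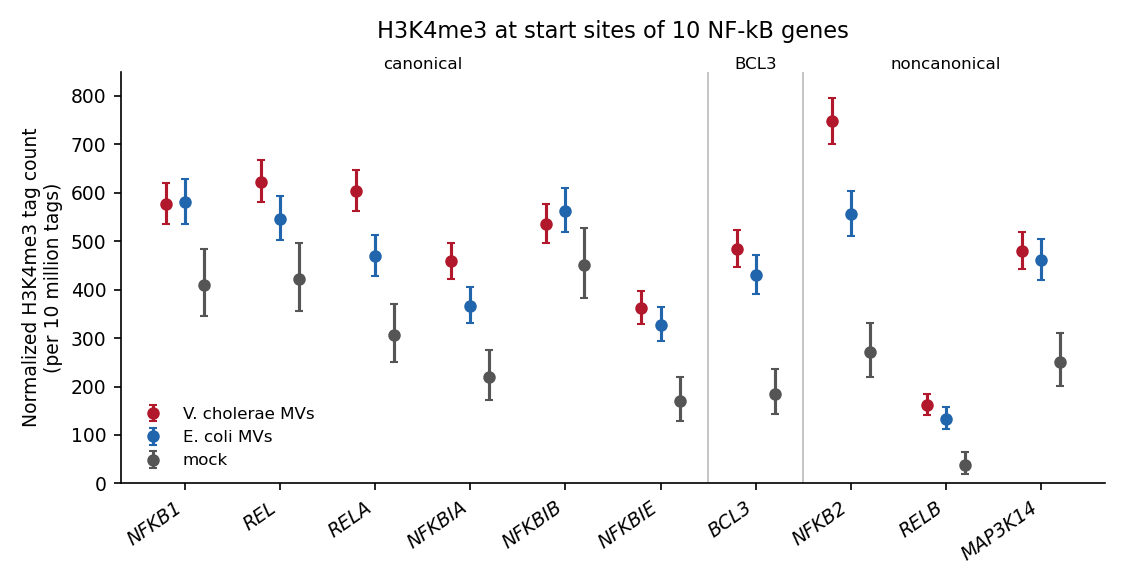
Normalized H3K4me3 tag count (tags per 10000000 of the library, vertical axis) summed over the start-site peaks of each member in the 3 libraries, with exact 95% counting intervals as bars. *NFKB2* ranged most widely, with 747.8 for *V. cholerae* MVs, 555.6 for *E. coli* MVs and 271.4 for mock, and *RELB*, with the shortest called peaks, had the fewest tags in every library.

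Among the canonical subunits, *NFKB1* (chromosome 4, 103422487 to 103538459), which encodes p105 and its product p50, had 576.4 normalized tags with *V. cholerae* MVs and 580.3 with *E. coli* MVs, against 409.9 with mock. The mark was thus nearly equal with the MVs of both species, and the log2 ratios of 0.49 (0.23 to 0.76) and 0.50 (0.24 to 0.78) lay close to the medians of all genes. *REL* (chromosome 2, 61108626 to 61158747), which encodes c-Rel, had 622.5, 546.1 and 421.5 in the same order, with log2 ratios of 0.56 (0.31 to 0.83) and 0.37 (0.11 to 0.65). Neither gene reached 1.5-fold with MVs of either kind. A divergent noncoding gene, *REL-DT*, starts on the *REL* peak, so its tags cannot be told apart from those of *REL*, and a noncoding RNA shares the *NFKB1* peak in the same way.

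*RELA* (chromosome 11, 65421070 to 65430561), which encodes the transactivating p65 subunit, differed from its canonical partners. It had 604.1 normalized tags with *V. cholerae* MVs, 469.2 with *E. coli* MVs and 306.0 with mock, with log2 ratios of 0.98 (0.69 to 1.29) and 0.62 (0.31 to 0.93). Its peak did not widen, at 2941 bp, 2753 bp and 2951 bp, and the difference lay in the density of tags, at 205.4, 170.4 and 103.7 tags per 1000 bp. Per 1000 bp, the log2 ratio of *RELA* with *V. cholerae* MVs was above that of 92.0% of genes. *RELA-DT* starts on the same peak.

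The inhibitors divided into *NFKBIA* and *NFKBIE*, which passed 1.5-fold, and *NFKBIB*, which did not. *NFKBIA* (chromosome 14, 35870285 to 35873955), the gene of IκBα, had 458.8 normalized tags with *V. cholerae* MVs, 366.6 with *E. coli* MVs and 219.4 with mock, log2 ratios of 1.06 (0.72 to 1.43) and 0.74 (0.38 to 1.12). *NFKBIE* (chromosome 6, 44225903 to 44233525), the gene of IκBε, had 362.0, 327.7 and 170.3, log2 ratios of 1.09 (0.70 to 1.504) and 0.94 (0.54 to 1.37). *NFKBIB* (chromosome 19, 39390340 to 39399533), the gene of IκBβ, had 534.9, 563.2 and 450.4 tags, and its mock peak was the densest among the members, at 160.1 tags per 1000 bp. Its log2 ratio was 0.25 (−0.004 to 0.51) with *V. cholerae* MVs, within counting error, and 0.32 (0.07 to 0.59) with *E. coli* MVs. *SIRT2*, a deacetylase gene, starts on the same peak.

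*BCL3* (chromosome 19, 45250962 to 45263301) encodes an atypical IκB protein that binds p50 and p52 homodimers in the nucleus and can act as a coactivator. It had 483.4 normalized tags with *V. cholerae* MVs, 430.3 with *E. coli* MVs and 184.8 with mock, log2 ratios of 1.39 (1.01 to 1.78) and 1.22 (0.84 to 1.62). Each library listed a peak over the start and another further downstream. The called span was 5356 bp, 5222 bp and 2598 bp, and the peaks together held 90.3, 82.4 and 71.1 tags per 1000 bp. Per 1000 bp of both peaks together, the log2 ratios against mock were 0.34 (−0.03 to 0.74) and 0.21 (−0.17 to 0.61), within counting error. The peak over the start alone held 119.1, 97.8 and 74.3 tags per 1000 bp, a larger difference, for which no interval was computed.

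Of the noncanonical members, *NFKB2* (chromosome 10, 104153867 to 104162281), the gene of p100 and p52, had at least 2-fold more tags than mock with MVs of either kind. Its normalized tag count was 747.8 with *V. cholerae* MVs, 555.6 with *E. coli* MVs and 271.4 with mock, log2 ratios of 1.46 (1.16 to 1.78) and 1.03 (0.72 to 1.36). A peak within the gene, from 3327 to 4374 bp after the start with *V. cholerae* MVs and from 3344 to 4156 bp with *E. coli* MVs, had no counterpart in the mock list. It held 58 and 24 tags, a small part of the 973 and 585 tags of the gene. The mock library was shallower, at 3463875 tags against 13011839 and 10528314, and the part of depth in this absence was not tested.

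*RELB* (chromosome 19, 45504719 to 45541450), the partner of p52, had the largest ratio of the members, from the mock peak with the fewest tags per 1000 bp (44.2). It had 161.4 normalized tags with *V. cholerae* MVs, 133.0 with *E. coli* MVs and 37.5 with mock, which are 210, 140 and 13 tags as sequenced. The log2 ratios of 2.10 (1.299 to 3.04) and 1.83 (1.00 to 2.77) were above those of 97.5% and 98.2% of genes, with wide intervals that follow from the 13 mock tags. *MAP3K14* (chromosome 17, 43340486 to 43394395), which encodes NIK, had 479.6, 460.7 and 251.2 normalized tags, log2 ratios of 0.93 (0.61 to 1.27) and 0.88 (0.54 to 1.22). Its ratio was the lowest of the noncanonical members. It was lower than those of *RELA*, *NFKBIA* and *NFKBIE* with *V. cholerae* MVs and than that of *NFKBIE* with *E. coli* MVs, with overlapping intervals.

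**Figure D2:**
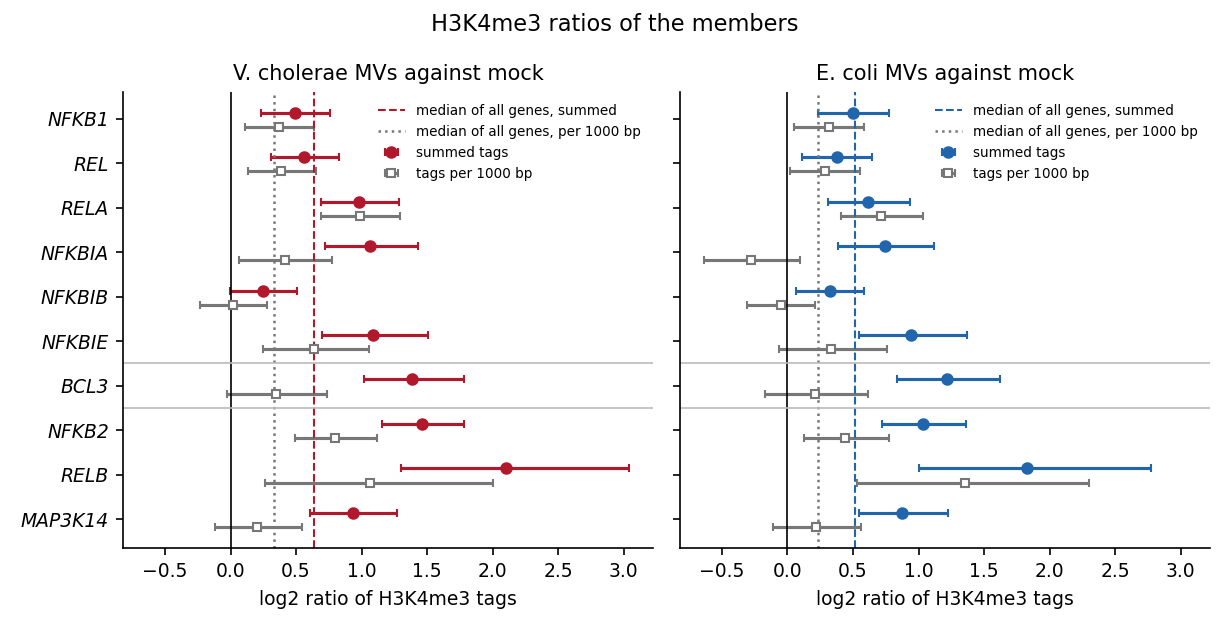
Log2 ratio of H3K4me3 against mock (horizontal axis) for each member, with *V. cholerae* MVs on the left and *E. coli* MVs on the right, as summed tags (filled circles) and as tags per 1000 bp of called peak (open squares), with 95% counting intervals. Horizontal lines part the canonical members, *BCL3* and the noncanonical members, and vertical lines give the medians of all genes, which are 0.63 and 0.52 for summed tags.

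The canonical and noncanonical members were compared by summing the tags of each group in each library, with *BCL3* in neither group. This ratio of ratios does not depend on how the libraries are scaled. The 3 noncanonical members had 1807 tags with *V. cholerae* MVs and 194 with mock, and the 6 canonical members had 4110 and 685, so the noncanonical ratio was higher by 0.64 on the log2 scale (0.39 to 0.89), or 1.55-fold. With *E. coli* MVs the tags were 1210 against 194 in mock for the noncanonical and 3004 against 685 for the canonical members, a difference of 0.51 (0.26 to 0.77). The gain of at least 1.5-fold was present at 3 of 3 noncanonical and 3 of 6 canonical members with MVs of either kind. It was present at 53.4% of all genes with *V. cholerae* MVs and at 42.6% with *E. coli* MVs. Per 1000 bp of called peak the difference between the groups lay within counting error, at 0.13 (−0.12 to 0.38) with *V. cholerae* MVs and 0.23 (−0.02 to 0.49) with *E. coli* MVs.

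GC content moved with this contrast. The mock H3K4me3 peaks had 63.3% GC at *NFKB2*, 71.8% at *RELB* and 57.7% at *MAP3K14*, against 50.6% to 52.2% at *REL*, *NFKBIB* and *NFKB1*, 60.5% at *RELA*, 62.7% at *NFKBIE* and 66.3% at *NFKBIA*. All genes were sorted by the GC content of their mock peaks into 4 classes of like size. The median log2 ratio with *V. cholerae* MVs was 0.13, 0.46, 0.80 and 1.29 from the lowest to the highest class, and 0.23, 0.41, 0.61 and 0.95 with *E. coli* MVs. *NFKB1*, *REL* and *NFKBIB*, the members under 1.5-fold, fell in the class next to the lowest. Within the highest class, the log2 ratios with *V. cholerae* MVs were 1.46 at *NFKB2* and 2.10 at *RELB*, against 1.06 at *NFKBIA* and 1.09 at *NFKBIE*. With *E. coli* MVs they were 1.03 and 1.83, against 0.74 and 0.94. *BCL3*, of the same class and in neither group, had 1.39 and 1.22 with *V. cholerae* and *E. coli* MVs. In the class next to the highest, the canonical *RELA* had 0.98 and 0.62, and the noncanonical *MAP3K14* had 0.93 and 0.88. Of the 10 members, *RELB* alone had an interval wholly above the median of its class, by a narrow margin with each kind of MVs (lower ends 1.299 and 1.004, medians 1.292 and 0.951). The part of GC content in the contrast was not tested.

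**Figure D3:**
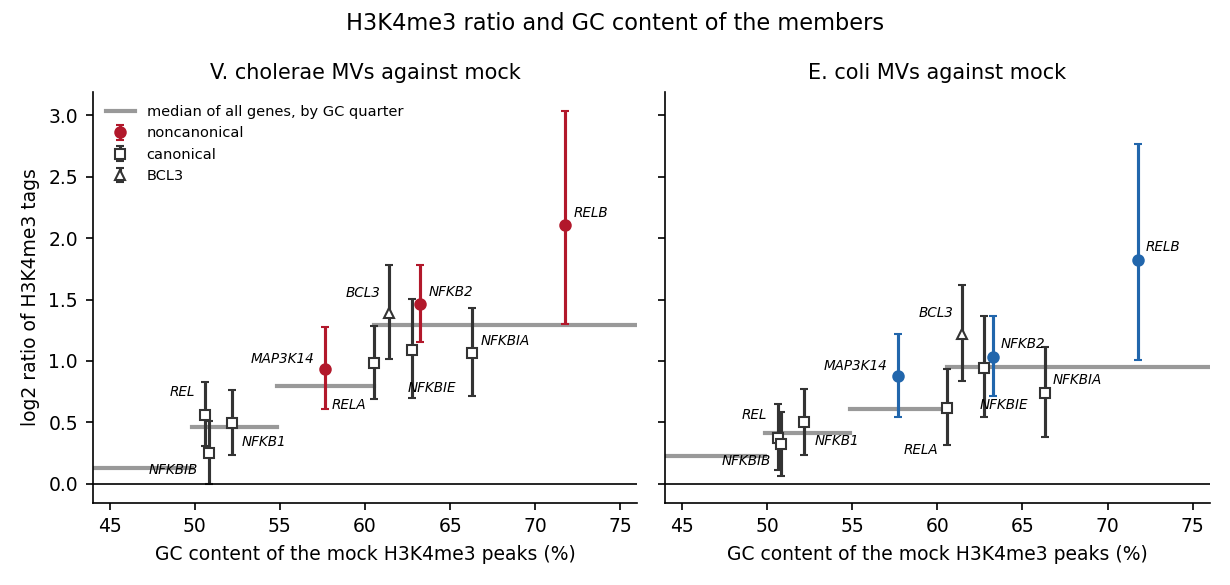
Log2 ratio of summed H3K4me3 tags against mock (vertical axis, with 95% counting intervals) by the GC content of the member's mock peaks in percent (horizontal axis), for *V. cholerae* MVs on the left and *E. coli* MVs on the right. Grey lines give the median of all genes in each of 4 classes of GC content, from 0.13 to 1.29 on the left and from 0.23 to 0.95 on the right, and the intervals of all members but *RELB* cross the line of their class.

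Much of the gain in summed tags came with wider calls. The called span was wider than in mock at 9 of 10 members with MVs of either kind, against 86.2% of genes with *V. cholerae* MVs and 87.4% with *E. coli* MVs, and *RELA* was the exception. *MAP3K14* spanned 4168 bp, 3969 bp and 2517 bp in the *V. cholerae* MV, *E. coli* MV and mock libraries, and its tags per 1000 bp were 115.1, 116.1 and 99.8. *NFKB2* gained in both measures, with spans of 4387 bp, 4172 bp and 2766 bp and 170.5, 133.2 and 98.1 tags per 1000 bp. *RELB* had spans of 1744 bp, 1176 bp and 849 bp and 92.5, 113.1 and 44.2 tags per 1000 bp. Per 1000 bp, 4 of 10 members were at least 1.5-fold higher with *V. cholerae* MVs (*RELA*, *NFKBIE*, *NFKB2* and *RELB*), against 28.7% of genes, and 2 of 10 with *E. coli* MVs (*RELA* and *RELB*), against 15.4%. *NFKBIA* went the other way with *E. coli* MVs, at 97.2 tags per 1000 bp against 117.8 in mock. With these MVs a further weak peak from 2714 to 3340 bp after the start was called, and the *NFKBIA* peak over the start alone had 110.9 tags per 1000 bp. *NFKBIB* was also lower with *E. coli* MVs, at 154.5 tags per 1000 bp against 160.1 in mock. Both differences, of *NFKBIA* and of *NFKBIB*, lay within counting error. The wider calls and the depth of the mock library, which held the fewest tags, cannot be told apart from the treatments here.

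**Figure D4:**
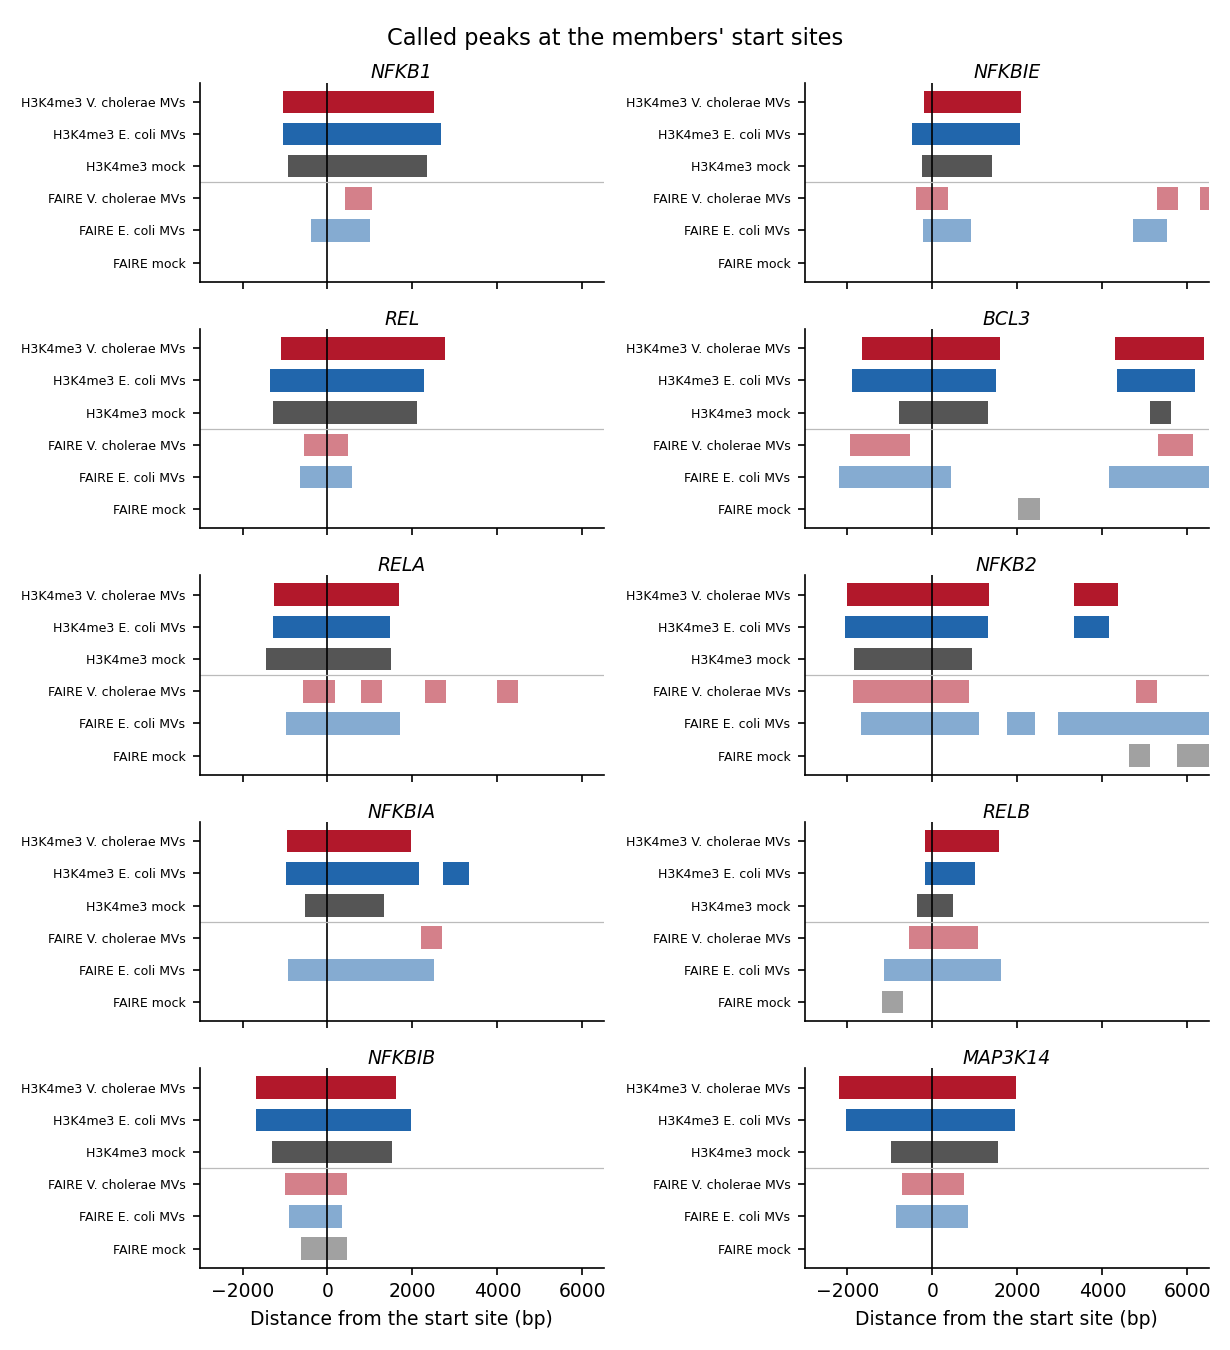
Called peaks by distance from the canonical start site of each member (horizontal axis in bp, along the direction of transcription, with peaks cut where they leave the axis), with H3K4me3 in the upper and FAIRE in the lower 3 rows of each panel. An H3K4me3 peak lies over every start site in all 3 libraries, whereas a mock FAIRE peak lies over the start site at *NFKBIB* alone.

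Between the MVs of both species the summed H3K4me3 tags were close. None of the 10 members differed by 1.5-fold in summed tags, while 6.31% of 12765 genes were at least 1.5-fold higher and 0.901% at least 1.5-fold lower with *V. cholerae* MVs. At *NFKB2*, *RELA*, *NFKBIA* and *REL* the level with *V. cholerae* MVs exceeded that with *E. coli* MVs beyond counting error, which held for 37.4% of genes. Their log2 ratios over *E. coli* MVs were 0.43 (0.28 to 0.58), 0.36 (0.20 to 0.53), 0.32 (0.14 to 0.51) and 0.19 (0.03 to 0.35), beside a median of 0.12 over all genes. *NFKB1* at −0.01 (−0.17 to 0.15), *NFKBIB* at −0.07 (−0.24 to 0.09) and *MAP3K14* at 0.06 (−0.12 to 0.23) stood nearest to equality. Per 1000 bp, *NFKBIA* passed 1.5-fold, at 0.69 (0.50 to 0.88) over *E. coli* MVs, as did 4.18% of genes. *RELB* was 0.28 (−0.04 to 0.60) in summed tags and −0.29 (−0.60 to 0.03) per 1000 bp. *NFKB1*, *NFKBIB* and *MAP3K14* also changed sign per 1000 bp, and these values, like those of *RELB*, lay within counting error. The noncanonical over canonical difference between the species was 0.13, with an interval that reached from 0 to 0.25.

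FAIRE peaks on the mock H3K4me3 peak of the gene were listed at 9 of 10 members with *V. cholerae* MVs, at 10 of 10 with *E. coli* MVs and at 1 of 10 with mock. Over 12070 genes with an H3K4me3 peak in all 3 libraries these shares were 78.6%, 97% and 36.2%. A peak in both MV libraries but not in mock was found at 8 members (all but *NFKBIA* and *NFKBIB*), against 45.8% of genes. A missing peak shows only that the region did not reach 4-fold over input and the caller's other limits, not that its DNA was closed.

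*NFKBIB* had the single mock FAIRE peak on the mark, with 82.0 normalized FAIRE tags with *V. cholerae* MVs, 192.7 with *E. coli* MVs and 26.9 with mock. The mock peak was 4.11-fold over input, just above the limit. Its log2 ratios against mock were 1.61 (1.06 to 2.18) and 2.84 (2.32 to 3.39), beside medians of 1.63 over 3900 genes and 3.18 over 4345 genes measured in the same way. The FAIRE gain of *NFKBIB* thus stood near that of the median gene.

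With no mock peak on the mark, the other members can be given only by their levels with MVs. The noncanonical *MAP3K14* had 101.8 normalized FAIRE tags with *V. cholerae* MVs and 322.0 with *E. coli* MVs, *NFKB2* had 77.8 and 204.1, and *RELB* had 63.8 and 180.0. Among the canonical subunits *RELA* had 55.5 and 209.2, *REL* had 29.0 and 74.8, and *NFKB1* had 18.2 and 50.7. *BCL3* had 75.4 and 406.9, over peaks of 2241 bp and 8737 bp in all, and *NFKBIE* had 24.0 and 71.0. *NFKBIA* had 233.2 with *E. coli* MVs over a peak of 3445 bp, and its sole peak with *V. cholerae* MVs, of 11 tags, lay off the mark, from 2197 to 2697 bp after the start. Per 1000 bp of peak, the FAIRE levels with *V. cholerae* MVs ran from 69.6 at *MAP3K14* and 56.3 at *NFKBIB* down to 28.6 at *NFKB2* and 28.0 at *REL*, so the order did not follow the division into canonical and noncanonical members.

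**Figure D5:**
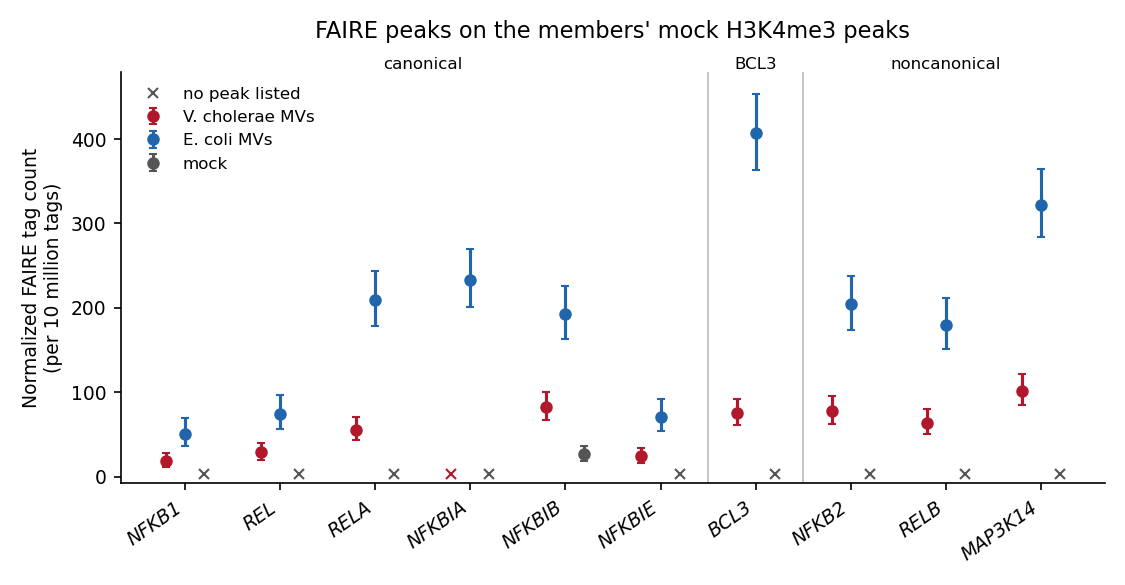
Normalized FAIRE tag count (tags per 10000000 of the library, vertical axis) in peaks on the mock H3K4me3 peak of each member, with exact 95% counting intervals, and crosses where no peak was listed. The values with *E. coli* MVs lie above those with *V. cholerae* MVs at each member with both, up to 406.9 at *BCL3*, and mock has a value at *NFKBIB* alone.

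*V. cholerae* MVs gave the lower FAIRE level at all 9 members with a peak on the mark in both MV libraries, by at least 1.5-fold, as they did at 94% of 9411 genes. The median log2 ratio of these members was −1.497, with a range of −2.43 to −1.23, and the median of all genes was −1.54. For the sum of all peaks near start sites, the direction turned at *NFKB1*, *NFKBIE*, *REL*, *NFKBIB*, *RELA* and *RELB* when libraries were scaled to the median gene, so these values give no order between the MVs. The *E. coli* FAIRE library that stood apart enters each of these ratios, and its part was not tested.

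Peaks counted near any start site gave a FAIRE ratio against mock for 5 members, *NFKBIB*, *BCL3*, *NFKB2*, *RELB* and *MAP3K14*. All 5 were at least 1.5-fold higher with MVs of either kind, against 75% of 7090 genes with *V. cholerae* MVs and 97.2% of 7990 genes with *E. coli* MVs. At *BCL3*, *NFKB2* and *MAP3K14* the mock peaks lay elsewhere than the MV peaks on the mark, for example from 32914 to 33414 bp after the start of *MAP3K14*. A mock peak of *RELB*, from −1197 to −697 bp relative to its start, overlapped the *E. coli* peak on the mark, which began at −1150 bp, but not the *V. cholerae* peak, which began at −555 bp. The noncanonical over canonical contrast in FAIRE, −1.71 with *V. cholerae* MVs and −1.32 with *E. coli* MVs, rests on 39 mock tags of *NFKBIB* for the canonical group. Its canonical MV tags, 380 and 682, were summed over all 6 members, also those without a mock peak. *NFKBIB* alone held 99 and 152 of them, with log2 ratios of 1.61 and 2.84, below the noncanonical 1.84 and 3.68. The contrast turned positive with tags per 1000 bp, with a window of 500 bp and with start sites of basic transcripts, so FAIRE gave no direction for it.

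Of 28 other genes of the pathway, 25 had H3K4me3 peaks with MVs and mock. With *V. cholerae* MVs 14 of 25 (56.0%) were at least 1.5-fold higher, against 53.4% of all genes. With *E. coli* MVs 12 of 25 (48.0%) were, against 42.6%. None was 1.5-fold lower, against 0.637% and 0.422% of all genes. The medians were 0.59 and 0.55, near those of all genes. *IKBKE*, an IKK-related kinase gene, had 364.3 normalized tags with *V. cholerae* MVs and 132.8 with mock, a log2 ratio of 1.46. *NFKBID*, which encodes a nuclear IκB protein, had log2 ratios of 1.31 with *V. cholerae* MVs and 1.03 with *E. coli* MVs, and *BIRC3*, whose product takes part in NIK degradation, had 1.07 with *E. coli* MVs. The lowest were *NFKBIZ*, the gene of another nuclear IκB protein, at 0.11 and *UBE2V1*, of a ubiquitin-conjugating complex, at 0.15 with *V. cholerae* MVs, and *UBE2V1* at 0.17 and *MAP3K7*, the gene of TAK1, at 0.21 with *E. coli* MVs. In FAIRE, 14 of the 28 had a peak with MVs and mock. With *V. cholerae* MVs 10 of 14 (71.4%) were at least 1.5-fold higher, against 75% of all genes, and 2 were 1.5-fold lower, against 4.7%. With *E. coli* MVs 14 of 14 were at least 1.5-fold higher, against 97.2%. Their median FAIRE log2 ratios against mock were 1.06 with *V. cholerae* MVs and 2.595 with *E. coli* MVs, beside 1.38 and 3.07 over all genes. The extremes with *V. cholerae* MVs were *BIRC3* at 2.23 and *SKP1* at 2.19, and *TRAF3* at −1.36 and *CUL1* at −0.74 (−1.93 to 0.37, within counting error). With *E. coli* MVs they were *TAB1* at 4.44 and *TRAF2* at 4.16, and *TRAF3* at 1.31 and *CHUK* at 1.44.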

How the data were processed

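Peak lists of 6 of the 8 samples were used, 1 per treatment and assay, and the 2 inputs were not analysed here. HOMER 4.7.2, Bowtie 1.1.2 and SAMtools 1.3.1 with hg19 stand in the submitters' processing notes, while the study's methods name Bowtie 2, MACS and HOMER. Per the file headers, the authors called peaks per library in the histone mode against input, at 4-fold over input, a Poisson p-value of 0.0001 and a minimum distance of 1000 bp. The authors deposited, for each peak, a normalized tag count (a signal per 10000000 tags), a tag count that is scaled to the input in 2 lists, the fold (a ratio over input), p-values and a region score. The p-values and the score were not used as results.

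Whole tags were recovered from the normalized tag counts (largest distance from a whole number 0.0721). A gene's value is the sum over peaks within 1000 bp of any start site (GENCODE release 44 lifted to GRCh37, which is hg19). Peaks shared by neighbouring genes count for each. Log2 ratios of genes were formed only where both lists had a peak, with exact conditional (Clopper-Pearson) 95% intervals. Sums over a group of members took the tags of every member, also where 1 of the lists had no peak. PCR copies are not independent, so intervals and depth cover counting error only. Calls are 1.5-fold, because 1 library per treatment allows no test. Python 3.11.15, NumPy 2.4.6, pandas 2.3.3, SciPy 1.17.1 and Matplotlib 3.10.9 were used.

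Members, pathway list, marker lists, motifs and tests were chosen with earlier results of these data known. All members are named, and of the 28 pathway genes at most the 2 highest and the 2 lowest for each kind of MVs against mock and assay. Alternatives changed the scaling, window, start sites, peak threshold, overlap, the value of a gene and the members of a group. Windows for the κB search followed canonical transcripts of GRCh37, and the sequence before the start of 1 member is not reported here.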

Additional observations from a re-analysis of the deposited data

How the results depend on the processing

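No paired analysis was possible because there is 1 library for each treatment and assay. Of 426 member ratios under alternatives, 391 kept their direction and 35 turned, 13 of them ratios of at least 1.5-fold. The number of members at least 1.5-fold higher in H3K4me3 was 7 with *V. cholerae* MVs and 7 with *E. coli* MVs against mock. It was 3 and 2 with tags scaled to all peaks or with the median gene set to 0, where scaling lowers every ratio alike, and 4 and 2 with tags per 1000 bp. Between *V. cholerae* and *E. coli* MVs it was 0, and 1 per 1000 bp (*NFKBIA*), against 4.18% of genes. The noncanonical over canonical difference in H3K4me3 was 0.64 and 0.51, and per 1000 bp 0.13 and 0.23. Between the MVs it was 0.13, but −0.11 per 1000 bp, 0.25 without *MAP3K14* and −0.036 without *NFKB2*. *NFKBIA* and *NFKBIB* with *E. coli* MVs against mock were −0.28 and −0.052 per 1000 bp. Against mock, *NFKBIB*, *NFKB1* and *REL* turned in H3K4me3 with MVs of either kind under at least 1 scaling, furthest at *NFKBIB* with *V. cholerae* MVs (−0.29 by peaks and −0.39 by the median gene). The removal of *NFKB2* or *RELB* and the restriction to FAIRE peaks on the mark were chosen after seeing the data.

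In FAIRE, 5 members passed 1.5-fold against mock with MVs of either kind. Fewer members had a ratio under some settings. With *V. cholerae* MVs the number was 3 of 5 with the median gene set to 0 and 1 of 3 with overlapping peaks (at 1 bp or 50%). It was 2 of 2 with start sites of basic transcripts and 1 of 1 on the mark, against 86.7% of 3900 genes. At 8-fold over input it was 0, as no mock peak of a member was left. With *E. coli* MVs it was 3 of 5 under both scalings and 3 of 3 under both overlaps. It was 2 of 2 with basic transcripts, 1 of 1 on the mark, against 99.7% of 4345 genes, and 0 at 8-fold, again with no ratio left. Between the MVs it was 0, and 2 under both scalings. The FAIRE difference between the groups with *V. cholerae* MVs was −1.71, and 0.93 per 1000 bp, 0.67 with a 500 bp window, −0.23 with a 2500 bp window, 1.92 with basic transcripts and −0.77 without *NFKB2*. With *E. coli* MVs it was −1.32, and 0.54, 0.72, −0.076, 1.49 and −0.53 under the same settings, −0.40 with peaks that share 1 bp and 0.89 with 50%. Between the MVs it was −0.39, and 0.39 per 1000 bp, 0.13 and 0.15 with overlapping peaks, −0.045 with a 500 bp window, 0.43 with basic transcripts and 0.46 on the mark. Member FAIRE ratios that turned were *NFKB2* with *V. cholerae* MVs (−0.10 by peaks, −0.51 by the median gene, −0.087 with overlapping peaks), *NFKBIB* and *NFKB2* with *E. coli* MVs (−0.23 and −0.10 by the median gene), and between the MVs *NFKB1* (1.06 by peaks, 1.23 by the median gene, 0.038 at 8-fold over input), *NFKBIE* (1.07 and 1.24 under the scalings), *REL* (0.056 by peaks, 0.22 by the median gene), *RELA* (0.087 by the median gene), *NFKBIB* (0.19 and 0.36) and *RELB* (0.002 by the median gene). Apart from these constructions, the cause was not tested. On the mark, with tags scaled to the whole library, *NFKB1* and *NFKBIE* stood at −1.48 and −1.56 between the MVs. Their other FAIRE peaks with *V. cholerae* MVs began 5279 bp or more after the start. Low tag counts limit the precision, with 13 mock tags at *RELB* in H3K4me3, and in FAIRE 11 tags at *NFKBIA* with *V. cholerae* MVs and 12, 13 and 24 mock tags at *BCL3*, *MAP3K14* and *RELB*.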
